A study of Mus musculus with 32 samples.

Results

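Glutathione is made and taken apart by a small set of enzymes and carriers, and 10 of them were followed here out of 21506 mouse genes measured. They were taken by gene symbol: Gclc, Gclm and Gss for synthesis, Slc7a11 for cystine import, Cth for cysteine supply, and Chac1, Ggct, Oplah, Anpep and Ggt7 for breakdown and the gamma-glutamyl cycle. Each of the 10 was read by 1 probe set that names no other gene. A further probe set shared between Oplah and its neighbour Exosc4 was left out.

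The cells were 3T3-L1, 1 mouse fibroblast line that is turned into adipocytes in culture. They received 1 µM auranofin, which inhibits thioredoxin reductase, or 100 µM BCNU (1,3-bis-(2-chloroethyl)-1-nitrosourea), which inhibits glutathione reductase, or both, for 2, 4, 8 or 24 h. Untreated cells at 0 h and controls at 4, 8 and 24 h completed 16 groups of 2 Affymetrix mouse gene arrays each, 32 in all. No 2 h control is named in the labels, so the 0 h arrays were set against the 2 h treatments, which is an assumption. The labels do not say that the 2 arrays of a group came from separate cultures, and the p-values below then measure only the spread between these arrays, which may be technical.

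Glutathione is a tripeptide of glutamate, cysteine and glycine that serves as the main small thiol of the cell. Glutamate-cysteine ligase joins glutamate to cysteine, glutathione synthetase adds glycine, and glutathione reductase returns the oxidised form to the reduced one. Cysteine comes from imported cystine or from methionine through transsulfuration, and breakdown by gamma-glutamyl cyclotransferases and surface peptidases returns the amino acids.

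The array values carry no read depth, and the number of arrays limits the precision. Values across genes correlated at r = 0.993 to 0.995 between the arrays of a group, and the adipocyte markers Adipoq and Fabp4 stood at 11.31 to 11.79 and 13.00 to 13.30 on the log2 scale in all arrays. Changes are given as a log2 difference ± its standard error (SE, from 2 arrays per group with the spread shared over all 32). A gene was called when its adjusted p was under 0.05 and its absolute log2 change was over 0.5. Levels are not compared between genes, because a probe set's level depends on its own sequence.

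Promoter windows of 300 bases (250 before to 50 after the annotated start, RefSeq, GRCm38.p6) were found for 7 of the 10 genes: Gclm, Gss, Slc7a11, Chac1, Ggct, Anpep and Ggt7. They were searched on both strands for the antioxidant response element written as TGACNNNGC, the C/EBP-ATF response element written as TGATGNAA and the AP-1 site written as TGANTCA. No match overlapped another. The windows of Gclm, Slc7a11 and Chac1 are shown because these genes carry the main responses below, with the matched letters in capitals, each 5′ to 3′ on the strand of its gene. The Gclm window lies at chr3:122245307-122245606 on the plus strand, Slc7a11 at chr3:50443564-50443863 on the minus strand and Chac1 at chr2:119350992-119351291 on the plus strand.
Gclm: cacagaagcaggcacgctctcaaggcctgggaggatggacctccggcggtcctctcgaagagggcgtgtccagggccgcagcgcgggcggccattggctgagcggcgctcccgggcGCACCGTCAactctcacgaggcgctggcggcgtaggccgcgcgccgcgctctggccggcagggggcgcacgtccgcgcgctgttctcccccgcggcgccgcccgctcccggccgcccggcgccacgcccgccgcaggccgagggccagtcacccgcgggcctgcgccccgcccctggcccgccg
Slc7a11: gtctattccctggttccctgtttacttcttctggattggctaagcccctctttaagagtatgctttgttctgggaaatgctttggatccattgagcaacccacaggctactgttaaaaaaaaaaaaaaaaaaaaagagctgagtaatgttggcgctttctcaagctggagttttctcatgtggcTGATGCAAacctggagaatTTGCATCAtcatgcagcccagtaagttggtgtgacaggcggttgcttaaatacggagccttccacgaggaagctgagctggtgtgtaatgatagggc
Chac1: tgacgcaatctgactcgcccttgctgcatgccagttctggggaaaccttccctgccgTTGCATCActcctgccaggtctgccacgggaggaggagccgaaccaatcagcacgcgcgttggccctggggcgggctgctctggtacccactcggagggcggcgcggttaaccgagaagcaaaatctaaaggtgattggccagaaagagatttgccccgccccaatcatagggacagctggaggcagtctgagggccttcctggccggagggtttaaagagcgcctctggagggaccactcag
The Gclm window held 1 match to the antioxidant response element, GCACCGTCA on the opposite strand, from base 117 of the window. The Slc7a11 window held TGATGCAA from base 185 and TTGCATCA from base 204, both matches to the C/EBP-ATF letters and on opposite strands. TTGCATCA also stood from base 58 of the Chac1 window. Ggct had 2 antioxidant response element matches (GCGACGTCA and TGACGCTGC), and the windows of Gss, Anpep and Ggt7 held none of the motifs. The antioxidant response element letters were in 12.4% of 32851 mouse promoter windows of this length and in 2 of the 7 here, the C/EBP-ATF letters in 3.97% and in 2 of 7, and the AP-1 letters in 7.81% and in 0 of 7. A match is a description of letters and not of a bound site.

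Across the 12 comparisons of a treatment with its control, Gclc was called in 10, Gclm in 8, Slc7a11 in 6, Chac1 in 4, Anpep in 4, Cth in 2 and Gss in 1. Ggct, Oplah and Ggt7 were called in none by limma, with an unadjusted p under 0.05 in 3, 0 and 0 of the 12. Every call of Anpep was a decrease, and every call of the other genes was an increase. Auranofin raised 1 of the 10 genes at 2 h, 3 at 4 h, 3 at 8 h and 3 at 24 h, where 0.0697%, 0.284%, 1.43% and 1.28% of all genes were called. With BCNU 0 genes were called at 2 h (0.0465% of all genes), 2 upwards at 4 h (0.79%), 3 upwards and 1 downwards at 8 h (2.26%) and 0 at 24 h (0.191%). Without adjustment, limma gave p under 0.05 for 1 of the 10 genes with BCNU at 2 h (Slc7a11) and 2 at 24 h (Gclc and Chac1).
With both drugs 2 genes rose at 2 h (1.49% of all genes called), 4 rose and 1 fell at 4 h (5.84%), and 5 rose and 1 fell at 8 h (11.3%) and at 24 h (9.13%). The median change of the 10 genes with both drugs was 0.28, 0.51, 0.74 and 0.53 from 2 to 24 h, and the median over all genes was at most 0.05 in any of these comparisons. The authors' normalisation makes all arrays' distributions alike, so the median over all genes was bound to change little. The 10 genes were chosen with earlier results of these data known. The 3 treatments of a time point share their control arrays and are not independent of each other.

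**Figure D1:**
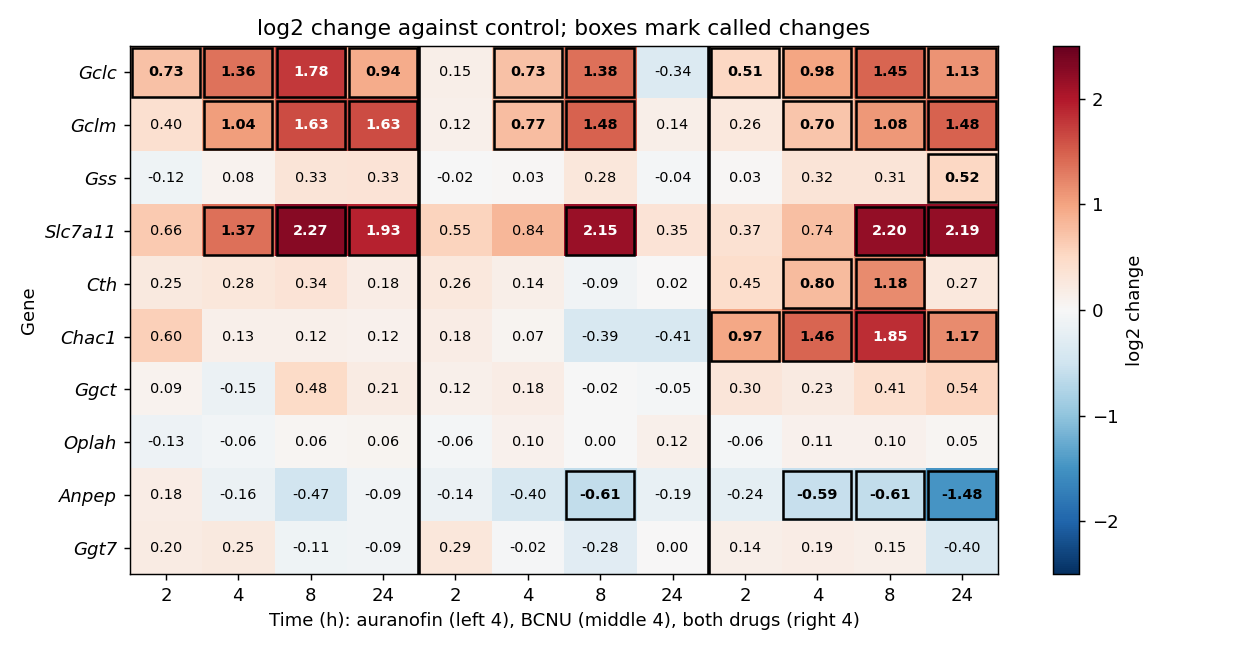
Log2 change against control of the 10 genes (vertical axis) at each time in hours (horizontal axis), with auranofin in the left 4 columns, BCNU in the middle 4 and both drugs in the right 4; colour and number give the change and boxes mark called changes. Gclc, Gclm and Slc7a11 carry boxes under all 3 treatments, whereas Chac1 and Cth carry them only in the columns of both drugs.

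None of the 10 genes was called between the 4, 8 or 24 h controls and the 0 h arrays, nor was any other gene (0% of all genes called at each time), although limma gave an unadjusted p under 0.05 for 1013, 917 and 955 genes, and for 1, 0 and 1 of the 10. The lowest and highest of the 8 control arrays were 7.96 to 8.27 for Gclc, 9.88 to 10.10 for Gclm and 6.57 to 6.90 for Chac1. Slc7a11 was the widest, from 4.45 to 5.996, with both ends in the later controls: 5.996 and 5.62 at 4 h and 4.45 and 5.28 at 24 h.

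Gclc encodes the catalytic subunit of glutamate-cysteine ligase, the rate-limiting enzyme of glutathione synthesis, and it had the most calls of the 10 genes. Auranofin arrays read 8.78 and 8.78 at 2 h, 9.55 and 9.59 at 4 h, 9.80 and 9.99 at 8 h and 9.29 and 9.13 at 24 h. The BCNU arrays read 8.16 and 8.23, 8.87 and 9.004, 9.49 and 9.51, and 8.07 and 7.81 at the same times. With both drugs the values were 8.58 and 8.55, 9.11 and 9.28, 9.59 and 9.55, and 9.39 and 9.42. All auranofin and both-drug arrays lay above all 8 control arrays, the BCNU arrays did so at 4 and 8 h, and the 24 h BCNU arrays lay below both of their 24 h controls (8.27 and 8.27). The auranofin change was 0.73 ± 0.10 at 2 h (adjusted p = 0.00143), and it was largest at 8 h, at 1.78 ± 0.10 or 3.42-fold (adjusted p = 1.83e-09). BCNU gave 0.73 ± 0.10 at 4 h and 1.38 ± 0.10 at 8 h (adjusted p = 0.000605 and 1.14e-07). At 24 h the BCNU change was -0.34 ± 0.10 and was not called (adjusted p = 0.261, unadjusted 95% interval -0.54 to -0.13). The 2 h calls each rested on single arrays: without untreated replicate 1 the auranofin change was 0.64 with adjusted p = 0.0568. The 2 h both-drug change of 0.51 ± 0.10 was no longer called when untreated replicate 1 was left out (adjusted p = 0.112) or either treated array (0.0644 and 0.0513), and with the 4 h controls in place of the 0 h arrays (0.35, adjusted p = 0.0673).

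Gclm encodes the modifier subunit of the same ligase, which raises the efficiency of the catalytic subunit. Its auranofin arrays were 10.35 and 10.44 at 2 h, 11.00 and 11.06 at 4 h, 11.52 and 11.62 at 8 h and 11.69 and 11.42 at 24 h. BCNU gave 10.11 and 10.12, 10.80 and 10.73, 11.45 and 11.39, and 10.08 and 10.05. Both drugs gave 10.35 and 10.18, 10.57 and 10.81, 11.08 and 10.95, and 11.38 and 11.44. From 4 h every treated array except those of BCNU at 24 h lay above all 8 control arrays. The rise was called at 4 and 8 h under each treatment and at 24 h with auranofin or both drugs. With auranofin Gclm was 1.04 ± 0.10, 1.63 ± 0.10 and 1.63 ± 0.10 above control at 4, 8 and 24 h (adjusted p = 1.14e-05, 1.02e-08 and 1.41e-08). With both drugs its change was 0.70 ± 0.10 at 4 h and 1.08 ± 0.10 at 8 h (adjusted p = 0.000168 and 4.75e-07). BCNU alone raised it by 1.48 ± 0.10 at 8 h (adjusted p = 1.14e-07), and at 24 h the difference was 0.14 ± 0.10 (adjusted p = 0.829, unadjusted 95% interval -0.08 to 0.36).

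Slc7a11 encodes the light chain of the cystine-glutamate exchanger, which brings in the cystine used for synthesis. Auranofin arrays stood at 5.96 and 5.74, 6.93 and 7.44, 7.51 and 7.49, and 7.26 and 6.33 at 2, 4, 8 and 24 h. BCNU arrays stood at 5.81 and 5.67, 6.70 and 6.59, 7.48 and 7.29, and 5.37 and 5.05. Arrays of both drugs stood at 5.74 and 5.39, 6.52 and 6.58, 7.59 and 7.26, and 7.01 and 7.09. At 8 h the 6 treated arrays lay between 7.26 and 7.59, above the 2 controls (5.34 and 5.12), and at 24 h those of BCNU alone overlapped the controls. The 8 h changes were 2.27 ± 0.26 with auranofin and 2.15 ± 0.26 with BCNU, or 4.84-fold and 4.45-fold (adjusted p = 3.65e-05 and 6.53e-05). At 24 h it was 1.93 ± 0.26 with auranofin (adjusted p = 0.000206) and 2.19 ± 0.26 with both drugs (adjusted p = 4.77e-06). BCNU alone gave 0.35 ± 0.26 at 24 h, which was not called (adjusted p = 0.829). The 4 h rise with auranofin, 1.37 ± 0.26 (adjusted p = 0.0177), lost its call without control replicate 2 (adjusted p = 0.252) or auranofin replicate 2 (0.345).

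**Figure D2:**
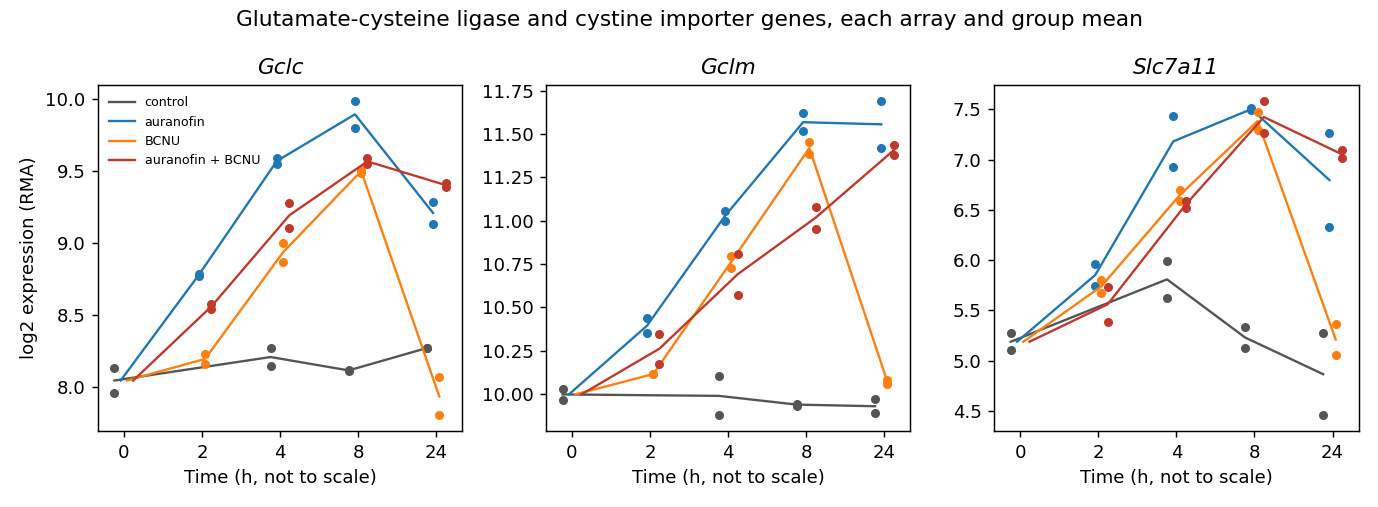
Log2 expression (vertical axis) of Gclc, Gclm and Slc7a11 against time in hours (horizontal axis, not to scale); points are single arrays, lines join group means, and the control line has no point at 2 h. With BCNU alone each gene falls between 8 and 24 h to near its control, whereas with both drugs it stays high (Gclm 11.38 and 11.44 at 24 h).

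The course over time was tested as the change against control at 24 h minus that at 8 h, 2 differences with separate controls. Under BCNU 3 of the 10 genes were called lower at the later time (0.488% of all genes called), with differences of -1.72 ± 0.14 for Gclc, -1.81 ± 0.37 for Slc7a11 and -1.34 ± 0.15 for Gclm (adjusted p = 3.31e-06, 0.0309 and 0.000111). The decline of Slc7a11 lost its call without 7 of the 8 arrays in turn (adjusted p 0.056 to 0.150; all but 24 h control replicate 1). With auranofin 1 gene was called (0.0325% of all genes): Gclc differed by -0.84 ± 0.14 (adjusted p = 0.0338; 0.115 to 0.264 on leaving out either control of either time, or auranofin replicate 2 of either time). Gclm differed by 0.00 ± 0.15 between those times with auranofin (adjusted p = 0.998, unadjusted 95% interval -0.31 to 0.31). With both drugs the differences were -0.32 ± 0.14 for Gclc, 0.40 ± 0.15 for Gclm and -0.01 ± 0.37 for Slc7a11, none of them called (adjusted p = 0.294, 0.188 and 0.999).

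The single drugs were also set against each other, a comparison in which no control enters. At 24 h auranofin stood above BCNU for 4 of the 10 genes (2.16% of all genes called): Slc7a11 by 1.59 ± 0.26, Gclm by 1.49 ± 0.10, Gclc by 1.27 ± 0.10 and Chac1 by 0.52 ± 0.14 (adjusted p = 0.00140, 5.33e-08, 2.11e-07 and 0.0445). The Slc7a11 difference was 1.12 without auranofin replicate 1 (adjusted p = 0.0608), and that of Chac1 lost its call without auranofin replicate 1 (0.450) or either BCNU array (0.104 and 0.304), after median centring (0.078) and with a replicate block (0.053). At 4 h only Gclc was called (0.316% of all genes), 0.63 ± 0.10 higher with auranofin (adjusted p = 0.00793), a call lost without auranofin replicate 2 (0.077) or BCNU replicate 1 (0.094). At 2 h (0.0186%) and 8 h (0.874%) limma called 0 of the 10, with unadjusted p under 0.05 for 4 and 4 of them, and at 8 h the Slc7a11 difference was 0.12 ± 0.26 (unadjusted 95% interval -0.42 to 0.66).

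Gss encodes glutathione synthetase, the last enzyme of synthesis, and was called once against a control. The 24 h arrays read 7.20 and 6.88 in the controls, 7.44 and 7.31 with auranofin, 7.18 and 6.81 with BCNU and 7.49 and 7.64 with both drugs. Both drugs lay above the other groups, and BCNU overlapped the controls. The both-drug change of 0.52 ± 0.16 was called (adjusted p = 0.0296), yet not without control replicate 2 (adjusted p = 0.301) or without either treated array (0.067 and 0.176), and centring the arrays on their medians brought it under the size threshold (0.49). At 8 h the 3 treatments gave 0.33, 0.28 and 0.31 with none called, each with an SE of 0.16.

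Both drugs and the sum of the single drugs were compared by an interaction term, in which the log2 changes under auranofin and under BCNU are added up and taken from the log2 change under the pair. At 2 h limma called 0 of the 10 genes (0.0558% of all genes called; unadjusted p under 0.05 for 2). At 4 h Chac1 lay above the sum and 3 genes below it (1.57%), at 8 h Chac1 and Cth above and 3 below (7.46%), and at 24 h Chac1 and Gclc above and Anpep below (3.77%). The genes below the sum at 4 and 8 h were Gclc, Gclm and Slc7a11 both times.
For Gclm at 8 h the single changes summed to 3.11 and both drugs gave 1.08, a departure of -2.03 ± 0.15 (adjusted p = 6.55e-08). For Slc7a11 at 8 h the sum was 4.43 against 2.20, a departure of -2.23 ± 0.37 (adjusted p = 0.000673), and for Gclc it was 3.16 against 1.45, a departure of -1.71 ± 0.14 (adjusted p = 2.8e-07). In value, each of these genes was lower with both drugs than with auranofin alone at 4 and 8 h. For Gclm both drugs were -0.55 ± 0.10 relative to auranofin at 8 h (adjusted p = 0.00106), which passed the size threshold only narrowly and missed it without auranofin replicate 2 (-0.50) or both-drug replicate 2 (-0.49). For Gclc that difference was -0.33 ± 0.10 and for Slc7a11 -0.08 ± 0.26, neither called (unadjusted 95% intervals -0.54 to -0.12 and -0.62 to 0.46). The 4 h departures were -1.10 ± 0.14 for Gclc, -1.11 ± 0.15 for Gclm and -1.47 ± 0.37 for Slc7a11, the last with adjusted p = 0.0469 and lost without any array but auranofin replicate 1 (0.068 to 0.211), and under cyclic loess (0.062).
By 24 h the sign for Gclc had turned, to 0.53 ± 0.14 (adjusted p = 0.0389). That call was lost without either control, auranofin replicate 2, BCNU replicate 2 or either both-drug array (0.095 to 0.219) and after median centring (0.058). Gclm and Slc7a11 gave -0.29 ± 0.15 and -0.09 ± 0.37 at 24 h, neither called.

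**Figure D3:**
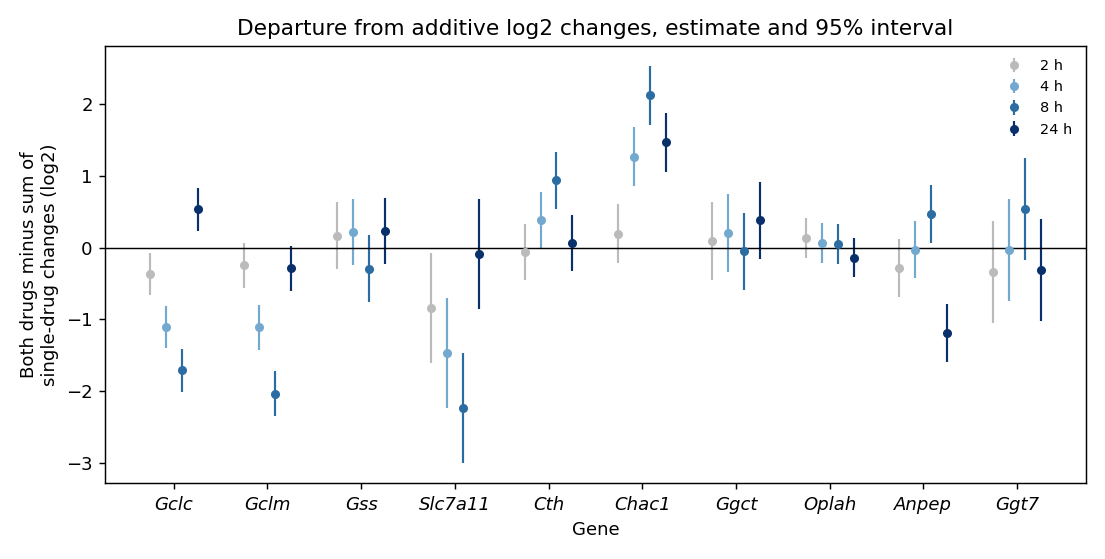
Departure of the both-drug change from the added single-drug changes (vertical axis, log2) for each of the 10 genes (horizontal axis) at 2, 4, 8 and 24 h from light to dark; points are estimates and bars unadjusted 95% intervals. At 8 h Gclc, Gclm and Slc7a11 lie below zero (-1.71, -2.03 and -2.23), whereas Cth and Chac1 lie above it (0.93 and 2.11).

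Chac1 encodes a cyclotransferase that cleaves glutathione inside the cell, and its calls against control all came with both drugs. Its both-drug arrays were 7.83 and 7.54 at 2 h, 8.24 and 8.35 at 4 h, 8.63 and 8.41 at 8 h and 7.71 and 7.95 at 24 h. Auranofin arrays were 7.33 and 7.28, 6.95 and 6.98, 6.90 and 6.69, and 6.92 and 6.62, and BCNU arrays 6.77 and 7.01, 6.97 and 6.84, 6.18 and 6.38, and 6.32 and 6.18. Every both-drug array lay above every array of the other groups, 7.33 being the highest of those, and the BCNU arrays at 8 and 24 h lay below their controls. The changes with both drugs were 0.97 ± 0.14, 1.46 ± 0.14 and 1.85 ± 0.14 at 2, 4 and 8 h, or 1.96-, 2.75- and 3.59-fold (adjusted p = 0.000531, 1.15e-06 and 1.46e-08). Auranofin alone gave 0.60 ± 0.14 at 2 h (adjusted p = 0.185), and BCNU alone -0.39 ± 0.14 at 8 h (adjusted p = 0.151).
The difference from the sum was tested directly. The departure was 1.26 ± 0.20 at 4 h, 2.11 ± 0.20 at 8 h and 1.46 ± 0.20 at 24 h (adjusted p = 0.00174, 1.36e-06 and 7.02e-05), and it was 0.19 at 2 h (adjusted p = 0.847). Against auranofin alone both drugs were 1.33 ± 0.14, 1.72 ± 0.14 and 1.06 ± 0.14 higher from 4 to 24 h. Against BCNU alone they were 0.79 ± 0.14 higher at 2 h (adjusted p = 0.00717; 0.093 without BCNU replicate 1 and 0.097 without both-drug replicate 1) and 2.24 ± 0.14 higher at 8 h, or 4.71-fold (adjusted p = 1.78e-09).

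Cth encodes cystathionine gamma-lyase, which releases cysteine in transsulfuration, and it was called at 4 and 8 h with both drugs. With both drugs it read 8.64 and 8.52, 9.05 and 9.18, 9.49 and 9.22, and 8.29 and 8.30 at 2, 4, 8 and 24 h. With auranofin the arrays read 8.39 and 8.39, 8.44 and 8.75, 8.57 and 8.47, and 8.31 and 8.10, and with BCNU 8.45 and 8.35, 8.55 and 8.36, 8.04 and 8.14, and 8.14 and 7.96. The 4 both-drug arrays of 4 and 8 h lay between 9.05 and 9.49 and above every other array, the next being 8.75, while the 8 controls spanned 7.95 to 8.37. The rise was 0.80 ± 0.13 at 4 h and 1.18 ± 0.13 at 8 h, the latter 2.27-fold (adjusted p = 0.000472 and 2.66e-06). At 24 h the change was 0.27 ± 0.13 and was not called, and the fall from 8 h, -0.91 ± 0.19, was called (adjusted p = 0.00840; 0.052 without the 8 h both-drug replicate 1). The same comparison called 2 of the 10 genes, Cth and Anpep, where 2.72% of all genes were called, and Chac1 gave -0.67 ± 0.20 (adjusted p = 0.0783). The 8 h departure of Cth from the sum was 0.93 ± 0.19 (adjusted p = 0.00361), and at 4 h it was 0.38 and not called.

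Both drugs differed from auranofin for 0 of the 10 genes by limma at 2 h (0.851% of all genes called; unadjusted p under 0.05 for 3), 2 at 4 h (5.29%; Chac1 and Cth higher), 3 at 8 h (10.5%; Chac1 and Cth higher and Gclm lower) and 2 at 24 h (7.42%; Chac1 higher and Anpep lower). Against BCNU the counts were 1 at 2 h (0.837%; Chac1 higher), 2 at 4 h (3.35%; Chac1 and Cth higher), 2 at 8 h (9.26%; Chac1 and Cth higher) and 7 at 24 h (8.29%). Those 7 were Anpep, lower, and Slc7a11, Chac1, Gclc, Gclm, Ggct and Gss, higher. The 24 h gains over BCNU were 1.84 ± 0.26 for Slc7a11, 1.47 ± 0.10 for Gclc and 1.34 ± 0.10 for Gclm. Those of Ggct (0.58 ± 0.18, adjusted p = 0.0413) and Gss (0.57 ± 0.16, adjusted p = 0.0202) were each lost without BCNU replicate 2 (0.139 and 0.266) or both-drug replicate 1 (0.327 and 0.052). The Ggct call was also lost without BCNU replicate 1 (0.158) and after centring (0.054), and that of Gss without both-drug replicate 2 (0.139). For Cth at 4 h the gain over auranofin, 0.52 ± 0.13, was lost without auranofin replicate 1 (adjusted p = 0.203), either both-drug array (0.055 and 0.110) or after centring (0.49, under the size threshold), and that over BCNU, 0.66 ± 0.13, without BCNU replicate 2 (0.087).

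**Figure D4:**
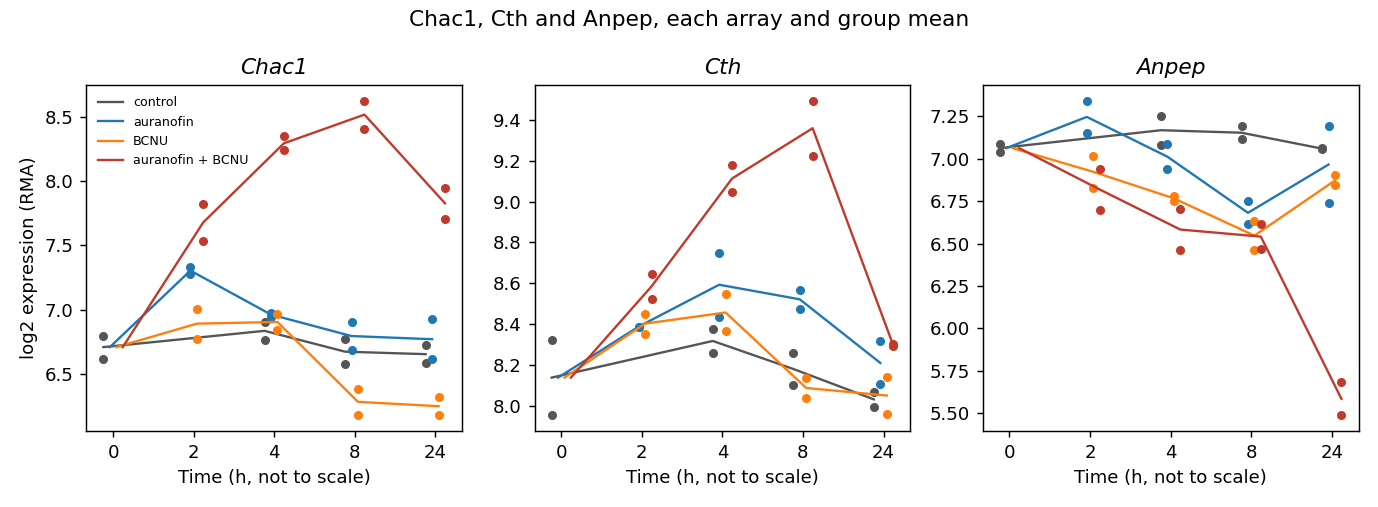
Log2 expression (vertical axis) of Chac1, Cth and Anpep against time in hours (horizontal axis, not to scale); points are single arrays and lines join group means. Chac1 and Cth are highest with both drugs at 8 h, and Anpep with both drugs is lowest at 24 h (5.49 and 5.68).

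Anpep encodes aminopeptidase N, a surface peptidase that splits the cysteinylglycine left by glutathione breakdown. It was the only one of the 10 genes called lower in a treatment against its control. Arrays of both drugs read 6.94 and 6.70, 6.71 and 6.46, 6.62 and 6.47, and 5.49 and 5.68 at 2, 4, 8 and 24 h. BCNU arrays read 6.83 and 7.02, 6.75 and 6.78, 6.46 and 6.63, and 6.90 and 6.84, and auranofin arrays 7.15 and 7.34, 6.94 and 7.09, 6.61 and 6.75, and 7.19 and 6.74. The 8 controls ranged over 7.04 to 7.25, above every array of both drugs, and the 24 h both-drug arrays were the lowest of all. The 24 h change with both drugs was -1.48 ± 0.14, which left 0.36 of the control level (adjusted p = 1.62e-07). It departed from the sum of the single changes by -1.19 ± 0.19 (adjusted p = 0.000531), and the fall from 8 to 24 h was -0.86 ± 0.19 (adjusted p = 0.0160; 0.057 to 0.076 without control replicate 2 or both-drug replicate 1 of either time).
The earlier calls were smaller: -0.59 ± 0.14 and -0.61 ± 0.14 with both drugs at 4 and 8 h, and -0.61 ± 0.14 with BCNU at 8 h. Leaving out control replicate 2 ended the 4 h call (adjusted p = 0.115), as did leaving out both-drug replicate 2 (0.102). The BCNU call ended without either control (0.117 and 0.073) or BCNU replicate 1 (0.157). Markers of preadipocytes or fibroblasts moved in the same arrays. Of 9 listed 8 were measured, and all 8 were called lower with both drugs at 24 h (median change -2.41). Their mean log2 level was 9.83 to 9.86 in the 24 h controls and 7.42 to 7.49 with both drugs at 24 h, against 9.67 to 9.68 with auranofin and 9.57 to 9.62 with BCNU at that time. At 8 h 4 of the 8 were called lower with both drugs and 4 with BCNU, and 2 with both drugs at 4 h. With auranofin at 24 h, where Anpep was -0.09, 3 of the 8 were called lower and 1 higher. Of 3 endothelial markers 2 were called higher with both drugs at 24 h (median change 1.02). The mean level of the 3 was 3.903 to 4.206 against 2.56 to 2.80 in the controls. Cdh5 stayed at 1.93 to 2.78 and Kdr at or below 3.32 in all arrays, under the arrays' medians of 3.55 to 3.69. Only Pecam1 rose above those medians, to as much as 7.13. Of 4 macrophage markers 1 was called higher with both drugs at each time, with a mean level of 3.48 to 3.51 against 2.71 to 2.95 at 24 h. Only Cd68 stood above the arrays' medians, at 3.78 to 7.58 over all arrays. Csf1r stayed below them at 1.99 to 3.03. Adgre1 and Ptprc stayed at 1.51 to 2.46 and 1.96 to 2.55, near the arrays' lower quartiles of 2.15 to 2.30. No preadipocyte or fibroblast marker was at 0, the lowest value among those being 5.64 for Thy1. The 10 adipocyte markers averaged 11.25 to 11.58 in every array, with a median change of -0.11 and 0 called with both drugs at 24 h. With both drugs at 8 h 1 of the 10 was called lower against control (median change -0.17) and 1 against BCNU alone (-0.18). Fewer cells of a type and less RNA per cell cannot be told apart in such bulk samples, and the part of these other markers in the Anpep result was not tested.

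Ggct, Oplah and Ggt7 were called against none of the controls. Ggct, which turns gamma-glutamyl amino acids into pyroglutamate, ranged from 5.14 to 6.03 over all arrays, and its largest change was 0.54 ± 0.18 with both drugs at 24 h (adjusted p = 0.0588). Its arrays were 6.03 and 5.71 against 5.49 and 5.18, which did not overlap, and the change passed the threshold when only genes above the median level were tested (adjusted p = 0.029). Oplah, which opens pyroglutamate to glutamate, was the steadiest of the 10, at 7.57 to 7.87 in 32 arrays and with changes of -0.13 to 0.12. Ggt7, a member of the gamma-glutamyltransferase family, ranged from 3.51 to 4.62, with changes of -0.40 to 0.29, and its BCNU arrays at 2 h read 3.80 and 4.62.

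**Figure D5:**
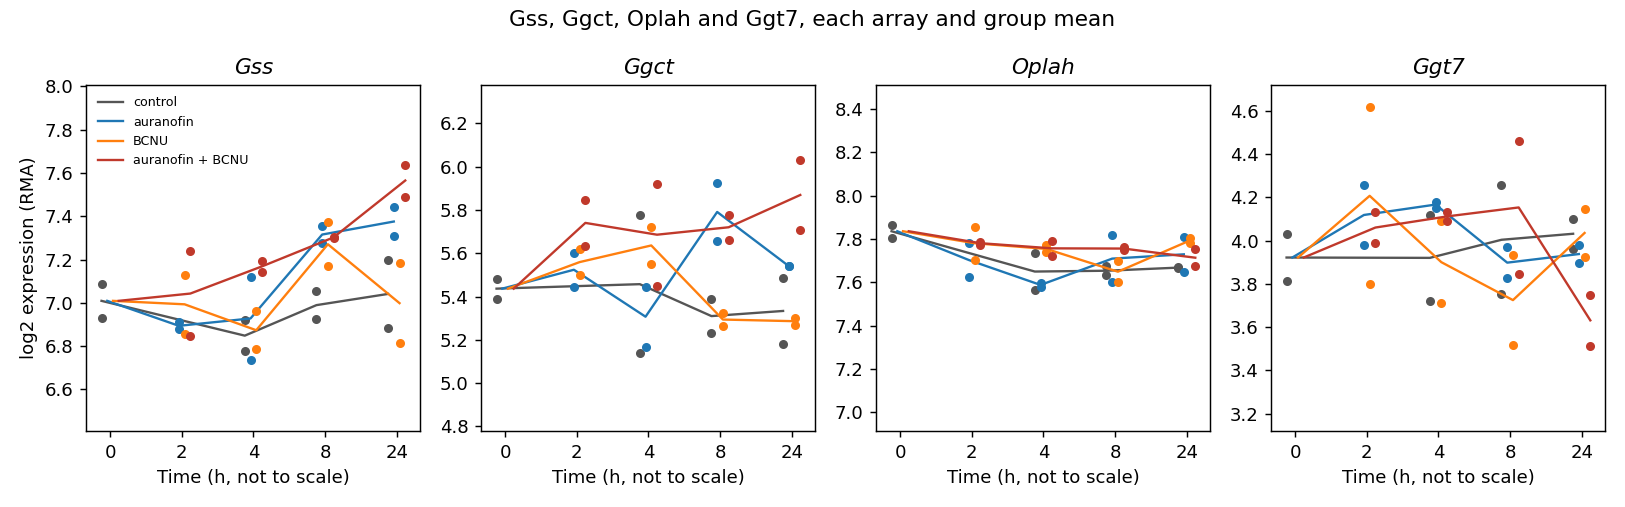
Log2 expression (vertical axis, the same span in each panel) of Gss, Ggct, Oplah and Ggt7 against time in hours (horizontal axis, not to scale); points are single arrays and lines join group means. Gss and Ggct with both drugs end above their controls at 24 h, Oplah stays within 7.57 to 7.87, and the arrays of Ggt7 overlap at most times.

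The courses of the genes were compared over the 16 group means, as a description. Pearson's r was 0.93 between Gclc and Gclm, 0.95 between Gclc and Slc7a11 and 0.92 between Gclm and Slc7a11, whereas Chac1 followed Cth at 0.86 and Slc7a11 at only 0.33. The points share the experiment, the controls and the arrays. Among 2312 genes that vary across the groups (2313 for Gss), those with courses most like Gclc were Srxn1 (0.955), Slc7a11 (0.953) and Trim16 (0.947), and those most like Gclm were Pgd (0.983), Srxn1 (0.975) and Cbr3 (0.959). Slc7a11 was closest to Trim16 (0.957), Gclc (0.953) and Txnrd1 (0.950). Chac1 lay closest to Slc3a1 (0.982), Slc25a2 (0.967) and Herpud1 (0.962), and Cth to Atf4 (0.939), Herpud1 (0.934) and Zfp948 (0.920). Anpep resembled Sema3a (0.977), Timp3 (0.975) and Marcks (0.972) most, and Gss resembled Card19 (0.892), Ptgr1 (0.890) and Lxn (0.889).

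Of 29 other genes of glutathione and cysteine handling 27 were measured (not Ggt1 or Mat2a), and the numbers called higher and lower at 2, 4, 8 and 24 h were 0 and 0, 1 and 0, 3 and 0, and 2 and 0 with auranofin. With BCNU they were 0 and 0, 1 and 0, 2 and 0, and 0 and 1, and with both drugs 2 and 0, 1 and 0, 2 and 1, and 5 and 2. Their median change lay between -0.04 and 0.15. Of all genes 0.0697%, 0.284%, 1.43% and 1.28% were called with auranofin at these times. With BCNU the shares were 0.0465%, 0.79%, 2.26% and 0.191%, and with both drugs 1.49%, 5.84%, 11.3% and 9.13%. As parts of the 27 genes, the both-drug counts at 4 and 8 h were near or below these shares. Single arrays moved several of the counts of the 27 genes. With both drugs the 2 calls at 2 h became 0 without untreated replicate 2 or both-drug replicate 1, the 3 at 8 h became 2 without control replicate 2 and 5 without both-drug replicate 2, and the 5 higher at 24 h became 3 without both-drug replicate 2. The 4 h count went from 1 to 2 without control replicate 1 with auranofin and without both-drug replicate 1 with both drugs. With BCNU the 4 h call was lost without any of 3 arrays (all but control replicate 1), 1 of the 2 calls at 8 h whichever array was left out, and the 24 h call without control replicate 2 or BCNU replicate 2.
Slc3a2 encodes the heavy chain that pairs with Slc7a11 in the cystine exchanger. It stood at 10.79 and 10.70 in the 8 h controls, 11.28 and 11.15 with auranofin, 11.10 and 11.20 with BCNU and 11.83 and 11.73 with both drugs, the last group above the others. With both drugs its change was 0.87 ± 0.11 at 4 h, 1.04 ± 0.11 at 8 h and 0.65 ± 0.11 at 24 h (adjusted p = 2.6e-05, 1.19e-06 and 0.000262). The 2 h call of 0.58 ± 0.11 ended when untreated replicate 2 (adjusted p = 0.0787) or both-drug replicate 1 (0.0837) was left out, and the change was 0.44 against the 4 h controls. BCNU gave 0.55 ± 0.11 at 4 h, lost without control replicate 2 (0.279) or either BCNU array (0.151 and 0.0598), and no auranofin change of Slc3a2 was called. Slc1a4, a neutral amino acid carrier, rose by 0.77 ± 0.12 with both drugs at 8 h (adjusted p = 9.38e-05), and its auranofin call of 0.51 ± 0.12 at 8 h was lost without any of the 4 arrays (0.0786 to 0.210) and under cyclic loess (0.496, under the size threshold). Ahcy, which splits adenosylhomocysteine, read 3.75 and 3.14 with both drugs at 2 h against 2.15 and 2.33, a change of 1.203 ± 0.28 that lost its call without either untreated array (0.167 and 0.119) or both-drug replicate 1 (0.255). Its untreated values were near the arrays' lower quartiles of 2.15 to 2.30, and Ahcy ranged only from 1.87 to 3.75 over all arrays.
Abcc1 and Abcc4 encode exporters of glutathione and its conjugates. Abcc1 read 9.22 and 9.30 in the 8 h controls, 10.47 and 10.36 with auranofin, 10.08 and 10.19 with BCNU and 9.56 and 9.33 with both drugs. Auranofin and BCNU alone lay above the rest, with changes of 1.16 ± 0.11 and 0.87 ± 0.11 (adjusted p = 1.72e-06 and 6.53e-05). Auranofin also raised Abcc1 by 0.71 ± 0.11 at 4 h and 1.02 ± 0.11 at 24 h. Abcc4 rose by 1.95 ± 0.20 at 8 h and 1.78 ± 0.20 at 24 h with auranofin (adjusted p = 7.77e-06 and 2.04e-05). With BCNU it was 0.94 ± 0.20 at 8 h, a call lost without any of the 4 arrays (0.0564 to 0.0746), and -1.24 ± 0.20 at 24 h, lost without control replicate 2 (0.163) or BCNU replicate 2 (0.128). Abcc5, a related exporter, was -0.53 ± 0.10 with both drugs at 8 h (adjusted p = 0.00125), and -0.38 without control replicate 2.
With both drugs at 24 h the largest calls were 1.45 ± 0.33 for Dpep2 and -0.71 ± 0.13 for Dpep1, both membrane dipeptidases, 0.72 ± 0.15 for Ggact, a gamma-glutamylamine cyclotransferase, and 0.69 ± 0.20 for Abcc4 (adjusted p = 0.00472, 0.000563, 0.00249 and 0.0232). The Abcc4 call was lost without control replicate 1 (0.239) or either both-drug array (0.0891 and 0.109). At 8 h the departures from the sum called among these genes were led by Abcc4 at -2.45 ± 0.28, Abcc1 at -1.85 ± 0.15, Abcc5 at -1.03 ± 0.15 and Cdo1, which oxidises cysteine, at 0.61 ± 0.13 (adjusted p = 1.61e-05, 2.12e-07, 0.000219 and 0.00675). The Cdo1 departure missed the size threshold without both-drug replicate 2 (0.498) and after median centring (0.48).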

How the data were processed

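Total RNA was extracted, and labelled cRNA was put on 32 Affymetrix mouse gene arrays (named MoGene-2_1-st in the labels), 2 per group. The deposited values are log2 expression from the authors' robust multi-array averaging (RMA), which corrects background and makes all arrays' distributions alike, so that a shift shared by most genes would not be seen. The study's methods name the oligo library and a versioned annotation package of the platform, while the version of oligo and a genome build are not given in the sources used here. Of 25293 probe sets, 22030 name 1 gene, 685 several and 2578 none. The median over a gene's probe sets was taken, giving 21506 genes, 465 of them with more than 1 probe set. Single arrays had medians of 3.55 to 3.69 and lower quartiles of 2.15 to 2.30, the range read as background.

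All 32 arrays were fitted together in limma 3.58.1 (R 4.3.3) with a mean for each of the 16 groups and 16 residual degrees of freedom. P-values were two-sided and adjusted by Benjamini-Hochberg over all genes within a comparison. The script was tested on simulated data. All 10 genes are named whatever their values. Of the other pathway genes, up to 4 called against control in a comparison, and at 8 h in the interaction, are named by size, and for genes called against control the 3 genes with the highest Pearson's r over group means are given. The 10 genes and all lists were chosen with earlier results of these data known. Arrays of the same number shared no visible deviation across groups (correlation of deviations -0.05 to 0.06 over 120 group pairs). That cannot tell whether they were handled together, and the main fit did not pair them. Alternatives were median centring, cyclic loess, the mean in place of the median over a gene's probe sets and testing only genes above the median level. Further ones were the 4 h controls for 2 h, fitting only the groups compared, a replicate block and leaving out each array. Promoter windows were matched by Entrez gene ID for 7 of the 10 genes.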

Additional observations from a re-analysis of the deposited data

Results flagged for a closer look

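Calls of the interaction and of the 24 h effect against the 8 h effect are listed here because in each the effect of a drug differed between conditions by a test of the difference itself. In Gclc the interaction was -1.10 at 4 h, -1.71 at 8 h and 0.53 at 24 h. The 24 h effect on Gclc was below the 8 h effect by -0.84 with auranofin and by -1.72 with BCNU. In Gclm the interaction was -1.11 at 4 h and -2.03 at 8 h, and the BCNU effect differed by -1.34 between 8 and 24 h. In Slc7a11 the interaction was -1.47 at 4 h and -2.23 at 8 h, and the BCNU effect differed by -1.81. In Chac1 the interaction was 1.26 at 4 h, 2.11 at 8 h and 1.46 at 24 h. Cth had an interaction of 0.93 at 8 h, and its effect of both drugs differed by -0.91 between 8 and 24 h. Anpep had an interaction of -1.19 at 24 h, and its effect of both drugs differed by -0.86. Leaving out single arrays, as given above, ended the calls of the Gclc interaction at 24 h and the Slc7a11 interaction at 4 h. Those of the 24 h against 8 h effect ended for Gclc with auranofin, Slc7a11 with BCNU, and Cth and Anpep with both drugs. With 2 arrays per group no single array could be tested as standing apart.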

How the results depend on the processing

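No change of sign occurred among the 77 called values of the 10 genes under any alternative. Only median centring, cyclic loess, the 4 h controls for 2 h and leaving out arrays could change an estimate. The rest alter only the spread or the adjustment for these genes, so a change of sign was not possible there. Leaving out 1 array at a time kept 315 of 380 values called and lost 65, spread over 21 results, and called no further one. Among the other alternatives, taking the mean over probe sets could not change the values of the 10 genes, each read by 1 probe set. Its 77 of the 465 values counted next therefore say little about how firm the calls are. The other alternatives kept 408 of 465 and lost 57, of which 49 came from fitting only the groups compared, where few arrays estimate the spread. In that fit the number of the 10 genes called went from 1 to 0 (auranofin), 2 to 0 (both drugs) and, for both drugs against BCNU, 1 to 0 at 2 h. At 4 h it went from 3 to 0 (auranofin), 2 to 0 (BCNU), 5 to 1 (both drugs), 4 to 0 (interaction), 2 to 1 (both against auranofin), 2 to 0 (both against BCNU) and 1 to 0 (auranofin against BCNU). At 8 h it went from 3 to 1 (auranofin), 4 to 0 (BCNU) and 3 to 1 (both against auranofin), and at 24 h from 3 to 0 (auranofin), 3 to 1 (interaction) and 4 to 0 (auranofin against BCNU). The 24 h against 8 h counts went from 1 to 0, 3 to 0 and 2 to 0 for auranofin, BCNU and both drugs. With the 4 h controls for 2 h both drugs called 1 in place of 2, and with median centring both drugs against auranofin at 4 h called 1 in place of 2. Auranofin against BCNU called 1 in place of 0 at 2 h under cyclic loess and with genes above the median level, and 1 in place of 0 at 8 h with the latter. In all, these alternatives newly called 7 values over 6 results. With genes above the median level they included Slc7a11 with both drugs at 4 h (limma adjusted p = 0.044). Chac1 in the 24 h against 8 h effect of both drugs was also called there (0.032). After median centring Gclm was called lower with both drugs than with BCNU at 8 h (-0.51). A replicate block, with numbers not known to pair the arrays, moved no count over 1.5 times and lost Chac1 between the single drugs at 24 h (adjusted p = 0.053). It gave 6 called genes with both drugs at 24 h, as without it, and 3 in place of 4 for auranofin against BCNU at 24 h.

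Without single arrays the counts ranged from 0 to 1 (auranofin, 2 h), 1 to 2 (both drugs, 2 h), 0 to 1 (both against BCNU, 2 h), 1 to 2 (both against auranofin and against BCNU, 4 h), 0 to 1 (auranofin against BCNU, 4 h), 2 to 4 (the same, 24 h), and 0 to 1 and 0 to 2 for the 24 h against 8 h effect of auranofin and both drugs. Over all genes the calls with both drugs were 321, 1257, 2432 and 1963 at 2, 4, 8 and 24 h, and the lowest without 1 array were 161, 730, 1813 and 1506. With auranofin 15, 61, 308 and 275 genes went to as few as 10, 37, 91 and 138, and with BCNU 10, 170, 486 and 41 to 3, 60, 268 and 10. The fit of only the groups compared called 7, 76, 848 and 858 genes with both drugs and at most 9 with either single drug. For the interaction 12, 338, 1605 and 810 calls went to 4, 114, 932 and 569 without 1 array. For both drugs against auranofin 183, 1138, 2252 and 1596 went to 47, 651, 1563 and 1145, against BCNU 180, 721, 1991 and 1783 to 78, 345, 1538 and 1382, and for auranofin against BCNU 4, 68, 188 and 465 to 2, 7, 20 and 145. The 24 h against 8 h counts of 7, 105 and 584 went to 1, 34 and 322. The array count limits all of these, and genes near background give compressed changes.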
